A study of Mus musculus with 24 samples.

Results

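The comparison described here is the effect of cisplatin on ID8 cells that also received AU-15330, which removes the ATPases SMARCA4 and SMARCA2: 6 libraries treated with both agents (CISPLATIN+AU15330, below the combination) were set against 6 libraries treated with AU15330 alone. Membership followed the treatment label, and these 12 libraries are part of the 24 of the study, which also holds 6 DMSO and 6 CISPLATIN libraries. ID8 P53 KO is a mouse ovarian cancer line with a P53 KO genotype, so the DMSO, single-agent and combination groups all lack p53. Cells were exposed for 6 days to 2.5 uM AU15330, to 750 nM cisplatin or to both, as the labels state. The methods of the study give another cisplatin concentration, and which was used could not be settled here. All groups come from 1 line, and nothing says that replicates were separate cultures, so p-values measure only the spread between these libraries.

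Cisplatin is a platinum drug that forms adducts within and between DNA strands. Cells answer such damage with checkpoint arrest and repair, and often with senescence, a lasting arrest in which cells secrete cytokines, chemokines and proteases (the senescence-associated secretory phenotype, SASP). AU-15330 is a PROTAC, a molecule that links its target to a ubiquitin ligase so that the protein is degraded. Its targets are the ATPases of SWI/SNF, a complex that moves nucleosomes and opens chromatin at promoters and enhancers. Because it acts on protein, the mRNA of Smarca4 and Smarca2 cannot check the labels: Smarca4 stood at 377 to 402 CPM, median 383, with AU-15330 and 373 to 397 CPM, median 387, with the combination, and the groups overlapped (-0.00 ± 0.06, adjusted p = 0.963).

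Values are CPM, the usual share of a library's counts, here with totals scaled by TMM, so levels are compared between libraries within a gene and not between genes, and fold changes are those of edgeR's quasi-likelihood fit (log2 ± SE, with Benjamini-Hochberg adjusted p over 12941 tested genes, n = 6 libraries a group). Library totals ran from 18725778 to 23490259 counts. The first principal component of the 12 libraries, with 59.1% of the variance, separated all AU-15330 libraries (-37.5 to -11.8) from all combination libraries (21.2 to 46.2). Replicate 1 lay farthest to the combination side in both groups, and on the second component (9.29%) replicates 1 to 3 lay above replicates 4 to 6 within each group. Without replicate 1, 5623 genes were called (2574 higher and 3049 lower), and 4956 of the 5394 calls of the full comparison were among them with 0 changes of sign. The mesothelial and ovarian surface genes Wt1, Msln, Krt8, Krt18 and Vim were expressed in all 12 libraries, whereas Krt7 was at or near 0 (at most 0.0971 CPM with AU-15330 and 0.216 CPM with the combination). Summed raw counts of 8 leukocyte markers were 1 to 9 a library with AU-15330 and 4 to 10 with the combination, with 3 and 1 of the markers at 0 throughout. Sums of 4 endothelial markers were 5 to 16 and 11 to 26, those of 5 fibroblast markers 1094 to 1551 and 1011 to 1885, those of 2 adipocyte markers 0 to 3 and 0 to 5, and the erythroid marker was at 0.

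**Figure D1:**
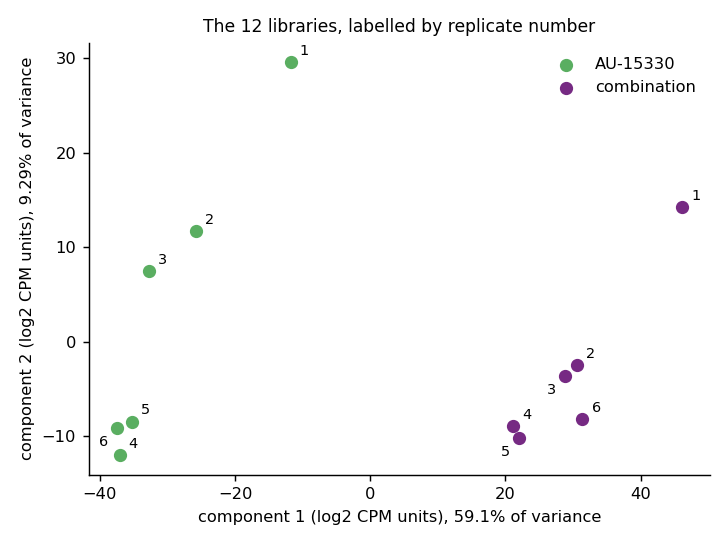
Principal components of log2 CPM over the 12 libraries, with component 1 (59.1% of the variance) on the x axis and component 2 (9.29%) on the y axis, in log2 CPM units. Each point is a library numbered by its replicate, and color marks the treatment. The groups are apart on component 1, and replicate 1 of AU-15330, at -11.8, is the AU-15330 library closest to the combination.

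Adding cisplatin to AU-15330 changed 5394 of 12941 genes (41.7%), of which 2873 (22.2%) were higher and 2521 (19.5%) lower. The increases were larger. Among called genes, 851 were more than 2-fold higher and 141 more than 2-fold lower, and 178 against 6 passed 4-fold. These counts include genes at or near the floor in 1 group, whose folds are uncertain. Such genes were more often at the floor with AU-15330 alone (62) than with the combination (3), as described below. The median log2 fold change was 0.57 for genes called higher and -0.41 for genes called lower, with a median over all tested genes of 0.0062. In 3836 genes (29.6%), the 6 combination and the 6 AU-15330 libraries did not overlap.

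**Figure D2:**
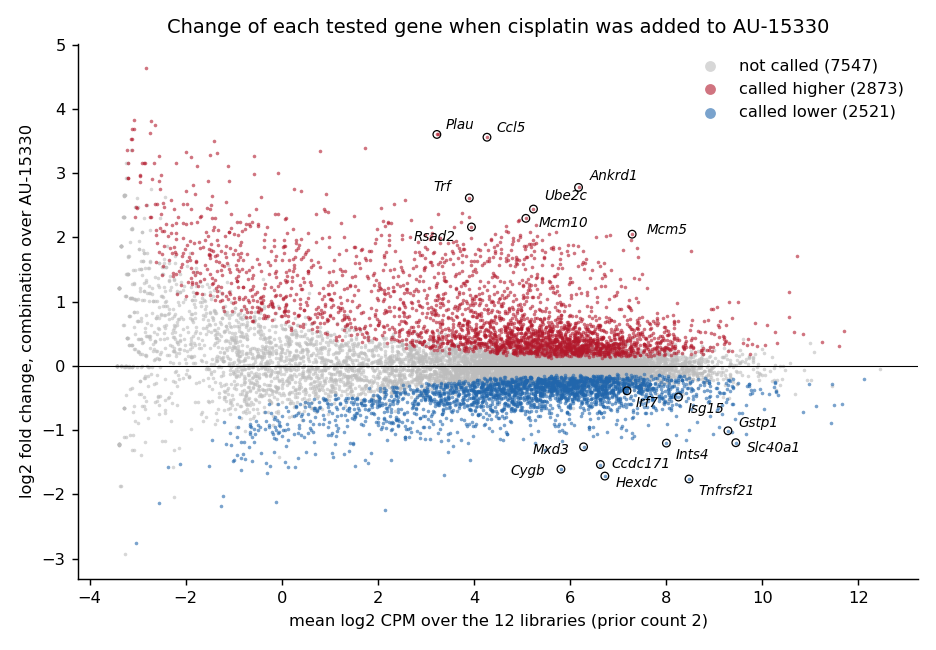
Log2 fold change of the combination over AU-15330 alone (y axis) against mean log2 CPM over the 12 libraries (x axis) for 12941 genes, with 2873 called higher in red, 2521 called lower in blue and the others in gray. Circled genes are named in the text. The cloud reaches farther above 0 than below it, with 178 increases and 6 decreases beyond 4-fold, genes near the floor included.

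Among genes with a mean log2 CPM of at least 5 and the same direction in 6 of 6 same-numbered pairs, the largest increase was in Ankrd1 (chr19:36111961-36120099, minus strand, GRCm38), an ankyrin repeat cofactor and a classic target of YAP. Ankrd1 read 15.7 to 54.2 CPM, median 24.4, with AU-15330 and 142 to 302 CPM, median 191, with the combination. The lowest combination library lay above the highest AU-15330 library (2.78 ± 0.25, adjusted p = 2.7e-09, 6.86-fold). The next were nearly all cell cycle genes. Ube2c (chr2:164769898-164778822, plus strand), the ubiquitin-conjugating enzyme of the anaphase-promoting complex, went from a median of 13.5 to 90.9 CPM (2.44 ± 0.31, adjusted p = 6e-07). Mcm10 (chr2:4989714-5012791, minus strand), which helps start the replication fork, went from 13.6 to 76.3 CPM (2.30 ± 0.15, adjusted p = 3.1e-11). Cep55, needed for the final cut of cytokinesis, rose by 2.20, the spindle genes Hmmr and Dlgap5 by 2.08 and 2.06, the helicase subunit Mcm5 by 2.05 and Rnd1, a small GTPase, by 2.08 on the log2 scale. None of these increases had overlapping groups.

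The largest decrease by the same rule was in Tnfrsf21 (chr17:43016555-43089189, plus strand), which encodes death receptor 6. Tnfrsf21 read 538 to 748 CPM, median 677, with AU-15330 and 166 to 225 CPM, median 193, with the combination, so that every combination library lay below every AU-15330 library (-1.76 ± 0.13, adjusted p = 1.9e-10, 3.39-fold lower). It stood at only 36.8 to 68.8 CPM in DMSO and 39.5 to 48.2 CPM with cisplatin alone. Mxd3, a partner of MAX in the MYC network, read 111 to 129 CPM, median 119, with AU-15330 and 42.4 to 57.5 CPM, median 51.5, with the combination (-1.26 ± 0.19, adjusted p = 6e-06), against 0.134 to 2.10 CPM in DMSO and 4.12 to 8.51 CPM with cisplatin alone, where, unlike Tnfrsf21, it was called higher than in DMSO (2.40). Hexdc, a hexosaminidase (-1.72), Ccdc171 (-1.54), Ints4, a subunit of Integrator (-1.20), and Slc40a1, the iron exporter ferroportin (-1.20), also fell without overlap. In Cygb, cytoglobin (-1.61), and Fosb, an AP-1 factor (-1.32), the groups overlapped in part although both were called (adjusted p = 1.1e-05 and 0.0039).

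**Figure D3:**
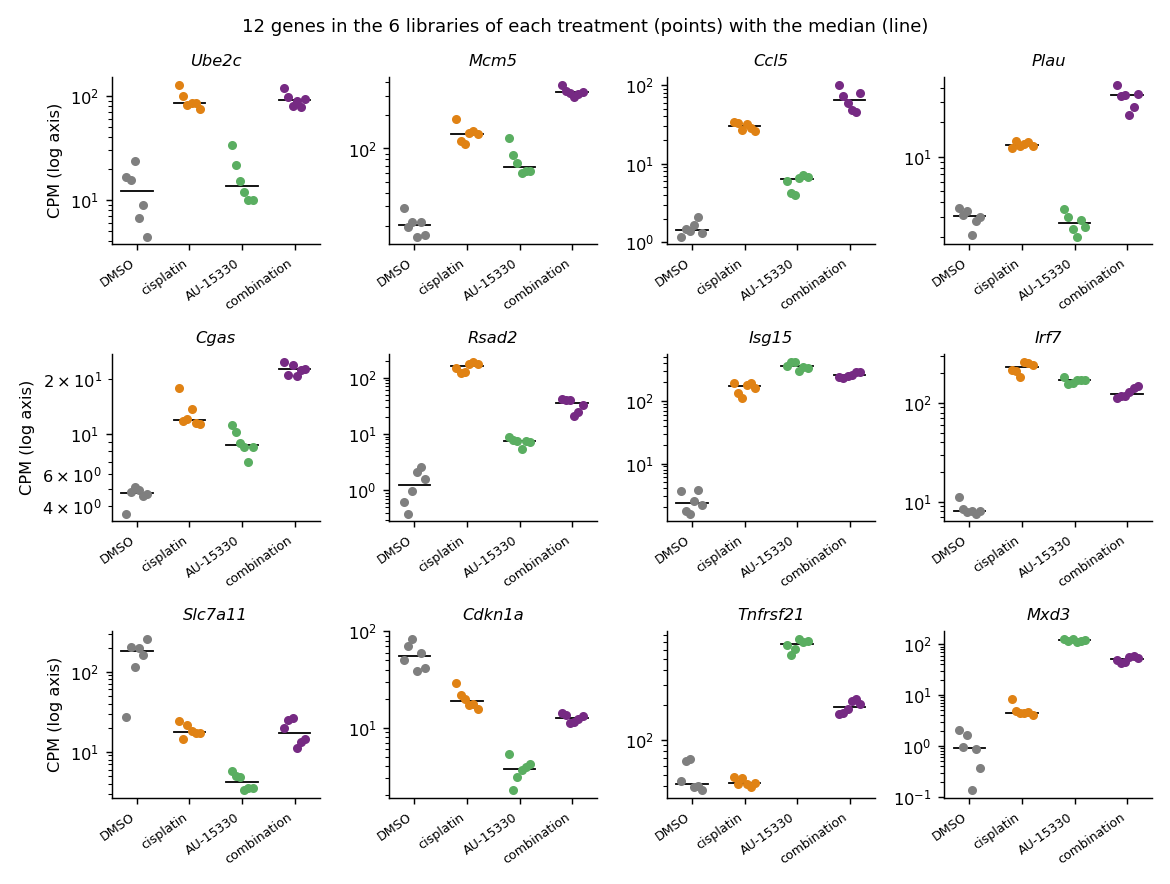
CPM on a log axis of 12 genes in the 6 libraries of each treatment (points), with the median as a line. Ube2c, Mcm5, Ccl5, Plau, Cgas, Rsad2, Slc7a11 and Cdkn1a are higher with the combination than with AU-15330 without overlap, and Isg15, Irf7, Tnfrsf21 and Mxd3 lower without overlap.

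Genes were then read by function, in 21 lists holding 586 different genes, of which 486 were tested. The cell cycle lists moved most. Of 34 genes of DNA replication, 33 rose (median log2 fold change 1.24), and of 30 genes of mitosis, 29 rose (median 1.80), where 22.2% of all tested genes did. The groups did not overlap in 33 and 29 of them. Only E2f2 (0.13 ± 0.09, adjusted p = 0.267) and the spindle checkpoint gene Mad2l1 (0.17 ± 0.14, adjusted p = 0.361) did not pass. Without replicate 1 the counts were again 33 and 29. In bulk RNA, a larger share of cycling cells and more mRNA per cell cannot be told apart.

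The promoters of members that rose are shown because both lists share short sequences that the lists were not built on. In RefSeq windows of GRCm38.p6 from 250 bases before to 50 after the start, searched on both strands, TTTGAA (the core of the cell cycle homology region) was in 19 of 25 mitosis genes with a window (76%), against 14.1% of tested genes. TTTCGCGC or TTTGGCGC, letters typical of E2F sites, were in 10 of 27 replication genes (37%), against 1.81%. In all 32851 windows the shares were 17.9% and 0.813%, and matches may overlap each other. Each stretch has 100 bases of the gene's strand upstream of its annotated exons, 5′ to 3′, with matches in capitals.
Mcm5, chr8:75109360-75109459, plus strand: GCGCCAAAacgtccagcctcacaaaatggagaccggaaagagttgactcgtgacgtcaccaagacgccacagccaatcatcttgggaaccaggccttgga
Mcm6, chr1:128359706-128359805, minus strand: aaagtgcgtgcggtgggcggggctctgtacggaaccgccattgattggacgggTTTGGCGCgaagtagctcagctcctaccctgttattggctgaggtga
Cdk1, chr10:69352939-69353038, minus strand: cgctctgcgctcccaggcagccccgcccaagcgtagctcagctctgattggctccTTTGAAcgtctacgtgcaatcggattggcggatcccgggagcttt
Cdc20, chr4:118437353-118437452, minus strand: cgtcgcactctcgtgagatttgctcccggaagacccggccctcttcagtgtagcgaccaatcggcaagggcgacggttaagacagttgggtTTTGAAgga
The E2F letters lie 149 bases before the start in Mcm5 and 47 in Mcm6, and TTTGAA 71 bases before it in Cdk1 and 18 in Cdc20. A match describes letters and does not show a factor at work.

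Replication genes rose at each step of the process. All 15 genes that load or fire origins were higher. Orc1, of the origin recognition complex, read 1.57 to 3.56 CPM, median 1.74, with AU-15330 and 10.7 to 14.2 CPM, median 12, with the combination, without overlap (2.51 ± 0.18, adjusted p = 8.7e-11). Mcm5, whose promoter is printed above, read 60.2 to 123 CPM, median 68.3, with AU-15330 and 291 to 376 CPM, median 321, with the combination (2.05 ± 0.16, adjusted p = 4.2e-10). Cdc45, which joins MCM in the active helicase, rose by 2.10 and Mcm2 by 1.43. Smaller gains were seen in Mcm6 (0.74) and in the sliding clamp Pcna (159 to 217 CPM, median 164, with AU-15330 and 263 to 354 CPM, median 278, with the combination, 0.74 ± 0.11, adjusted p = 8.9e-06). All 10 fork genes and all 5 nucleotide genes rose, among them Rrm2, the small subunit of ribonucleotide reductase (1.49). E2f1, the transcription factor that drives many of these genes, rose least among the genes named (67.0 to 78.9 CPM, median 68.1, with AU-15330 and 88.3 to 99.9 CPM, median 91.2, with the combination, 0.42 ± 0.10, adjusted p = 0.00094).

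Mitotic genes had the higher median of the 2 lists. Ccnb1, cyclin B1, read 8.49 to 23.9 CPM, median 12.2, with AU-15330 and 59.0 to 81.0 CPM, median 67.4, with the combination (2.26 ± 0.23, adjusted p = 1.9e-08), and its kinase Cdk1 read 49.8 to 95.2 CPM, median 56.5, with AU-15330 and 153 to 214 CPM, median 155, with the combination (1.37 ± 0.17, adjusted p = 3.2e-07). In both genes the AU-15330 library nearest to the combination was replicate 1. The mitotic kinases Aurka (2.18) and Plk1 (1.92), the kinetochore gene Cenpf (1.79) and the checkpoint kinase Bub1 (1.95) moved alike. Mki67, the proliferation antigen, rose from a median of 81.4 to 304 CPM (1.70 ± 0.23, adjusted p = 1.5e-06). All 64 list members were also higher with cisplatin over DMSO (26% of all tested genes were), with medians of 1.52 for replication and 2.73 for mitosis. The increase was smaller in the presence of AU-15330 for 15 of 34 replication and 19 of 30 mitosis genes by the interaction test, which was negative for 15.8% of all genes. The mitosis count fell to 11 without replicate 1. In summed CPM of the 30 mitosis genes, AU-15330 replicate 1 (2181) and replicate 2 (1639) stood above the other 4 (1060 to 1275), while the combination libraries ran from 4123 to 4912. DMSO libraries ran from 462 to 1021 and those with cisplatin alone from 3570 to 4585. The paper reports less proliferation and more senescence in this line after cisplatin. Proliferation was not measured here, and how far the DMSO cells were cycling at day 6 was not tested.

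The brakes of the cycle moved both ways. Cdkn1a, the inhibitor p21, rose from between 2.25 and 5.40 CPM to between 11.2 and 14.4 CPM (1.77 ± 0.20, adjusted p = 1.3e-07). In the absence of AU-15330 it had moved the other way with cisplatin (-1.50), and the interaction was 3.27 (adjusted p = 7.5e-10). Cdkn2d, another inhibitor, rose (1.15) and Cdkn1b, p27, fell slightly (-0.22). Ccnd1, cyclin D1, rose from 17.6 to 68.8 CPM (1.89 ± 0.14, adjusted p = 1.6e-10). Lmnb1 and Hmgb2, nuclear proteins known to be lost in senescence, rose by 1.25 and 1.31. Of the 4 tested nuclear genes of this list, these 2 rose and 1, Hmgb1, was called lower. The lysosomal galactosidase Glb1 was not called (-0.14 ± 0.08, adjusted p = 0.18; adjusted p = 0.0122 in the 12 libraries alone). Cdkn2a, which encodes p16 and p19Arf, was at 0 counts in all 12 libraries, a level below the floor of 3 counts, or 0.123 to 0.157 CPM. In all, 9 of 18 tested genes of this list (50%) were higher and 3 (16.7%) lower, beside 22.2% and 19.5% of all tested genes.

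Because the cells lack p53, genes known as p53 targets were counted apart. Of 24 tested, 6 (25%) rose and 2 (8.33%) fell, beside 22.2% and 19.5% of all genes. The 2 that fell became 5 when replicate number entered the fit as a block, with DESeq2 size factors and with DESeq2's own test, 6 in the 12 libraries alone and without replicate 1, and 4 without the filter and without replicate 2. Besides Cdkn1a, the kinases Plk3 (3.00 to 5.13 CPM, median 3.58, with AU-15330 and 13.1 to 19.4 CPM, median 15.3, with the combination, 2.04 ± 0.14, adjusted p = 6.8e-11) and Plk2 (1.61) rose without overlap. Mdm2, the ligase of p53, was not called (-0.13 ± 0.06, adjusted p = 0.0773; -0.16, adjusted p = 0.0165 without replicate 1), nor was Bbc3, which encodes PUMA (-0.26 ± 0.14, adjusted p = 0.142; -0.38, adjusted p = 0.0252 without replicate 1). Trp53 mRNA itself read 18.7 to 22.2 CPM, median 20.2, with AU-15330 and 26.3 to 35.5 CPM, median 29.5, with the combination (0.56 ± 0.09, adjusted p = 9.9e-06), which does not check the genotype, since the labels do not say which part of the gene is disrupted.

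Of 39 tested genes that repair platinum damage, 21 (53.8%) rose and 4 (10.3%) fell, beside 22.2% and 19.5% of all tested genes, with 20 and 4 without replicate 1. Homologous recombination contributed 6 of 7, the Fanconi anemia pathway, which opens interstrand crosslinks, 8 of 11, checkpoint genes 4 of 7, translesion synthesis 2 of 5 and nucleotide excision repair 1 of 9. Differences between these pathways were not tested. Brca1 read 26.2 to 42.4 CPM, median 28.6, with AU-15330 and 92.4 to 105 CPM, median 97.8, with the combination (1.67 ± 0.11, adjusted p = 1.1e-11). Fancd2, the central Fanconi protein, rose by 1.82 and Exo1, a resection nuclease, by 1.93 on the log2 scale. Chek1, the checkpoint kinase downstream of ATR, read 7.44 to 13.8 CPM, median 8.40, with AU-15330 and 28.9 to 37.7 CPM, median 33.5, with the combination (1.80 ± 0.13, adjusted p = 1.1e-10). Polh, the polymerase that copies past platinum adducts, rose by 0.74. In nucleotide excision repair, which removes adducts within a strand, Ercc3 rose (0.17), Ercc5 fell (-0.27), and Ercc1 stayed between 11.9 and 15.5 CPM, against 11.4 to 15.6 (-0.06 ± 0.10, adjusted p = 0.672). Trp53bp1, which opposes end resection, fell (-0.49 ± 0.10, adjusted p = 0.0002). The 4 decreases were 2 without replicate 5.

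Of 23 tested genes of platinum transport and thiols, 6 (26.1%) rose and 4 (17.4%) fell, near the 22.2% and 19.5% of all tested genes (2 lower without replicate 4 and without replicate 6). Slc31a1, the copper transporter that also takes up cisplatin, read 44.2 to 51.0 CPM, median 46.7, with AU-15330 and 56.4 to 61.4 CPM, median 57.7, with the combination (0.31 ± 0.07, adjusted p = 0.00063). The copper pump Atp7b was not called (-0.17 ± 0.38, adjusted p = 0.759). Gstp1, a glutathione transferase, fell without overlap (614 to 1038 CPM, median 944, with AU-15330 and 376 to 506 CPM, median 444, with the combination, -1.01 ± 0.14, adjusted p = 3.8e-06), and Txnrd1, thioredoxin reductase, rose (0.69 ± 0.13, adjusted p = 0.00017). The metallothionein Mt1 fell (-0.56 ± 0.21, adjusted p = 0.031), a call lost on leaving out any of replicates 2 to 6 (adjusted p from 0.0503 to 0.064), and Mt2 was not called (0.18 ± 0.22, adjusted p = 0.544). Hmox1, heme oxygenase, rose (0.53 ± 0.15, adjusted p = 0.00474) and Nqo1 was not called (-0.18 ± 0.20, adjusted p = 0.497; adjusted p = 0.0364 in the 12 libraries alone). Gstp1 and the metallothioneins have close copies whose reads the counting could have split.

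Of 42 genes of the secretory phenotype, 30 passed the filter. Of these, 18 were higher (60%, beside 22.2% of all tested genes) and 2 lower (6.67%, beside 19.5%), with 19 and 2 without replicate 1. The groups were apart in 19, and in 29.6% of all genes. The chemokine Ccl5 (chr11:83525778-83530518, minus strand), which attracts T and NK cells, read 3.95 to 7.19 CPM, median 6.31, with AU-15330 and 45.9 to 101 CPM, median 65.5, with the combination. The lowest combination library was more than 6 times the highest AU-15330 library (3.56 ± 0.18, adjusted p = 2.2e-13, 11.8-fold). Cxcl10, a chemokine induced by interferon, read 2.03 to 3.87 CPM, median 2.76, with AU-15330 and 21.4 to 62.7 CPM, median 32.0, with the combination, with combination replicate 1 highest by far (3.62 ± 0.28, adjusted p = 2.7e-10). Ccl2, which recruits monocytes, read 0.658 to 1.58 CPM, median 1.01, with AU-15330 and 5.99 to 21.2 CPM, median 9.32, with the combination (3.40 ± 0.29, adjusted p = 1.2e-09), and Cxcl1 rose from a low level (0.368 to 0.724 CPM in the median, 1.08 ± 0.32, adjusted p = 0.00844). In all, 6 of 8 tested chemokines rose, and Cxcl16 fell (-0.43).

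Among cytokines, Lif, of the interleukin 6 family, rose from 12.1 to 45.0 CPM (2.00 ± 0.13, adjusted p = 2e-11), whereas Il15, which sustains NK cells, fell (-0.58 ± 0.15, adjusted p = 0.00276). Il6 itself, with at most 2 and 4 counts a library, did not pass the filter. Of 7 tested proteases and inhibitors, 6 rose. Plau, the urokinase plasminogen activator (chr14:20836660-20843385, plus strand), read 2.00 to 3.47 CPM, median 2.63, with AU-15330 and 23.1 to 42.3 CPM, median 34.1, with the combination, and had the lowest p of the list (3.60 ± 0.15, adjusted p = 3.5e-15). Its receptor Plaur (0.95 ± 0.13, adjusted p = 2e-06) and the metalloproteinase inhibitor Timp1 (0.79) rose too. Plau answered cisplatin more with AU-15330 than without it (interaction 1.49, adjusted p = 3.5e-06), whereas Cxcl10 answered less (-2.62, adjusted p = 0.0001). Over the list, the interaction was positive for 14 of 30 genes (17.9% of all tested genes) and negative for 6 (15.8% of all; 2 on leaving out replicate 2, 5 or 6). A positive value can also be a fall with cisplatin that was smaller or not called with AU-15330, as in the growth factors Areg (-2.06 with cisplatin over DMSO, 0.19 ± 0.18, adjusted p = 0.429 here) and Vegfa (-1.92, and -0.16 ± 0.16, adjusted p = 0.448 here). In summed CPM, which weights abundant members, the combination (2516 to 2978), AU-15330 alone (1552 to 1802) and cisplatin alone (2834 to 3693) were all below DMSO (4407 to 6455). For cisplatin over DMSO the sum and the median gene differed in direction: 15 of the 30 genes were higher and 9 lower, with a median of 0.456. Of all tested genes 26% were higher and 25.7% lower there.

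Of 20 tested genes that let immune cells see a tumor cell, 5 rose and 3 fell, or 40% called beside 41.7% of all tested genes. Of 12 tested genes of class I antigen presentation, 1 rose and 3 fell: Psmb8, an immunoproteasome subunit, rose (1.02), and Tap2 (-0.52), Erap1 (-0.28) and H2-T23 (-0.59) fell. H2-K1 read 296 to 483 CPM, median 388, with AU-15330 and 375 to 444 CPM, median 409, with the combination (0.09 ± 0.13, adjusted p = 0.611) and Tap1, of the peptide transporter, was not called either (-0.13 ± 0.09, adjusted p = 0.286). Reads of H2-K1 can be shared with related class I genes. Of 8 tested ligands for NK and T cells, 4 (50%) rose, beside 22.2% of all tested genes. Ulbp1, a ligand of the activating receptor NKG2D, read 1.43 to 2.30 CPM, median 1.87, with AU-15330 and 4.89 to 8.47 CPM, median 6.56, with the combination, without overlap (1.80 ± 0.21, adjusted p = 1.8e-07). Raet1d, another NKG2D ligand, rose from 0.250 to 1.09 CPM (2.18 ± 0.30, adjusted p = 2.5e-06), while its relative Raet1e was not called (-0.03 ± 0.18, adjusted p = 0.91). The reads of these 2 could be split between copies. The adhesion molecule Icam1 (1.03) and Pvr (0.62) also rose, and Cd274, which encodes PD-L1, read 17.1 to 20.3 CPM, median 18.7, with AU-15330 and 13.9 to 20.3 CPM, median 18.8, with the combination (-0.03 ± 0.15, adjusted p = 0.887).

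AP-1 and NF-kB, factors known to drive secretory genes, had members that moved apart. Of 20 tested, 8 (40%) rose and 6 (30%) fell, beside 22.2% and 19.5% of all tested genes. Fosl1, the AP-1 factor FRA1, rose 6.73-fold from a low level (0.191 to 0.855 CPM, median 0.431, with AU-15330 and 1.73 to 4.71 CPM, median 3.11, with the combination, 2.75 ± 0.32, adjusted p = 1.9e-07), and Maff rose (1.40). Fos fell without overlap (148 to 299 CPM, median 228, with AU-15330 and 72.2 to 139.8 CPM, median 123, with the combination, -1.04 ± 0.20, adjusted p = 0.00013), and Jun was not called (-0.27 ± 0.13, adjusted p = 0.104; adjusted p = 4.3e-05 in the 12 libraries with the block). Of 9 tested AP-1 genes, 3 rose and 4 fell. Of 5 NF-kB subunit genes, Nfkb2 rose (0.45 ± 0.09, adjusted p = 0.00021). Of 6 feedback genes of NF-kB, 4 rose and 2 fell: the inhibitor genes Nfkbie (0.73 ± 0.11, adjusted p = 9.9e-06) and Tnfaip3 (0.64) rose, as did Bcl3 (0.38) and Birc3 (0.23), and Nfkbia, the inhibitor IkBa (-0.57 ± 0.11, adjusted p = 0.00011), and Nfkbiz (-0.51) fell.

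**Figure D4:**
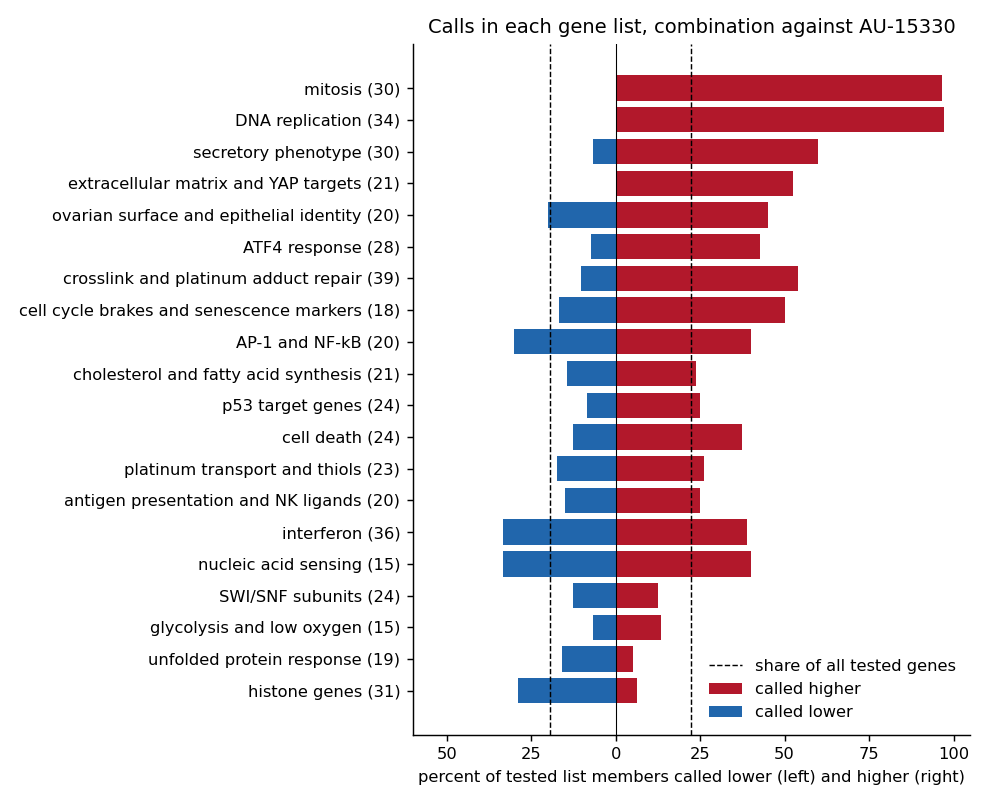
Percent of the tested members of each gene list called higher (red, right) and lower (blue, left) with the combination than with AU-15330 alone, for lists with at least 10 tested genes, whose number is in parentheses. Dashed lines mark the shares of all tested genes, 22.2% higher and 19.5% lower. Mitosis and DNA replication reach 96.7% and 97.1% higher, and the interferon list has 38.9% higher and 33.3% lower.

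Type I interferon acts through a complex of transcription factors that includes STAT2 and IRF9 and binds the interferon-stimulated response element of antiviral genes. With cisplatin over DMSO, 34 of 36 tested genes of this list rose (median log2 fold change 4.60), beside 26% of all tested genes. With cisplatin added to AU-15330, 14 rose (38.9%, beside 22.2% of all tested genes) and 12 fell (33.3%, beside 19.5%), and 13 and 11 did without replicate 1. The decreases were small: with a fold above 1.5 asked for as well, 10 rose and 1 fell. The median was -0.001, and 0.002 without replicate 1. The groups were apart in 18 of the 36, beside 29.6% of all genes. For 33 of the 36 the interaction was negative, beside 15.8% of all tested genes, so that the log2 fold change with cisplatin was lower with AU-15330 than without it. The summed CPM of the list was 732 to 793 in DMSO, 3988 to 5504 with cisplatin alone, 4437 to 4778 with AU-15330 alone and 3340 to 4031 with the combination.

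Ifnb1, the ligand interferon beta, had at most 2 counts a library with AU-15330 and 3 with the combination and was not tested. The genes named as lower stood far above DMSO with AU-15330 alone. Isg15 (chr4:156199424-156200818, minus strand), a ubiquitin-like protein, read 295 to 422 CPM, median 357, with AU-15330 and 231 to 287 CPM, median 256, with the combination, so that all combination libraries lay below all AU-15330 libraries (-0.49 ± 0.14, adjusted p = 0.00726). Irf7, the factor that amplifies the response, read 154 to 182 CPM, median 169, with AU-15330 and 112 to 148 CPM, median 124, with the combination (-0.39 ± 0.09, adjusted p = 0.00113), and Irf9 fell likewise (-0.42). Xaf1 (-0.40) and Rtp4 (-0.39) fell without overlap, Rtp4 with an adjusted p of 0.0563 to 0.0646 without replicate 3, 4 or 6.

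The genes named as higher stood, with AU-15330 alone, far below their level with cisplatin alone. Rsad2, viperin, read 5.39 to 8.78 CPM, median 7.51, with AU-15330 and 20.7 to 42.1 CPM, median 36.1, with the combination (2.16 ± 0.22, adjusted p = 1.7e-08). Ifit3 read 0.763 to 1.80 CPM, median 1.04, with AU-15330 and 3.50 to 6.32 CPM, median 5.14, with the combination (2.01 ± 0.29, adjusted p = 3.6e-06), and Ifit1, which has close copies, rose with overlap (0.75 ± 0.20, adjusted p = 0.00354). Oas3, which makes the activator of RNase L, went from between 0.0953 and 0.360 CPM to between 0.727 and 1.35 CPM (2.23 ± 0.40, adjusted p = 7.2e-05), and Zbp1, a Z-nucleic acid sensor, from between 0.0486 and 0.288 CPM to between 0.364 and 1.12 CPM (2.15 ± 0.37, adjusted p = 3.8e-05). In Oas3 and Zbp1 the lowest AU-15330 libraries were under the floor of 0.123 to 0.157 CPM, so their folds are uncertain. The combination also stayed below the level with cisplatin alone: Rsad2 was at 120.3 to 191 CPM there, Oas3 at 73.0 to 159 and Ifit3 at 66.1 to 122.

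The promoters of a gene that fell and of 2 that rose are printed as examples of both kinds that carry letters of the response element. TTCNNTTTC, its core, was in 15 of 28 interferon genes with a RefSeq window (53.6%), against 8.57% of tested genes and 8.56% of all windows. It was in 8 of 11 genes that rose, 3 of 9 that fell and 4 of 8 not called. Capitals mark the matches, as before.
Isg15, chr4:156200819-156200918, minus strand: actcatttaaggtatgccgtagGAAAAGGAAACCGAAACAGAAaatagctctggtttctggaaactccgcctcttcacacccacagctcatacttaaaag
Ifit1, chr19:34640771-34640870, plus strand: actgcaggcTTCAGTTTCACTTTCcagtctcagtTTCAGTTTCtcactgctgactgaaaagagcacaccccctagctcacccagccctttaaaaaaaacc
Oas3, chr5:120777662-120777761, minus strand: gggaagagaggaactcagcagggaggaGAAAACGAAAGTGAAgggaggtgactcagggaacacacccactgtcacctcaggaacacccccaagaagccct
In Isg15 3 overlapping matches begin 78, 72 and 66 bases before the start, in Ifit1 matches begin at 109, 103 and 84, and in Oas3 at 75 and 69.

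Of 15 tested sensors of stray nucleic acid and their partners, 6 (40%) rose and 5 (33.3%) fell, beside 22.2% and 19.5% of all tested genes. The DNA sensor Cgas (chr9:78430526-78443237, minus strand), which makes the messenger cGAMP, read 6.99 to 11.2 CPM, median 8.68, with AU-15330 and 20.8 to 24.8 CPM, median 22.6, with the combination, without overlap (1.32 ± 0.11, adjusted p = 1.8e-09). Its receptor Sting1 read 4.93 to 7.38 CPM, median 5.82, with AU-15330 and 16.2 to 22.9 CPM, median 17.1, with the combination (1.62 ± 0.10, adjusted p = 5.4e-12), which left it below DMSO, at 30.1 to 35.2 CPM. The RNA sensors Ddx58, which encodes RIG-I (-0.37 ± 0.09, adjusted p = 0.00223), Ifih1, which encodes MDA5 (-0.44 ± 0.10, adjusted p = 0.00108), and Dhx58 (-0.64) fell without overlap, the RNA sensor Tlr3 was not called (-0.21 ± 0.12, adjusted p = 0.183), and Mavs, the adaptor of RIG-I and MDA5, rose (0.26). Rnaseh2c, a subunit of the nuclease that removes RNA from DNA, rose (0.77 ± 0.12, adjusted p = 7.9e-06).

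Stress genes under ATF4, the factor of the integrated stress response, differed from their response to cisplatin alone. Of 28 tested, 12 (42.9%) rose and 2 (7.14%) fell, beside 22.2% and 19.5% of all tested genes, with a median of 0.345 (0.24 without replicate 1). The 12 became 7 without replicate 4 and without replicate 6. Cisplatin over DMSO had lowered 24 of them (25.7% of all genes were lower there), with a median of -0.811, and for 24 the interaction was positive, as it was for 17.9% of all tested genes. In the 12 libraries alone 18 of 27 rose, and 21 with the replicate block there. DMSO replicate 1 stood apart in these genes: their summed CPM was 3621 there and 6306 to 7524 in the other DMSO libraries. Without replicate 1 the cisplatin median was -0.956 and 24 interactions were called.

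Slc7a11, the cystine importer (chr3:49892526-50443614, minus strand), read 3.29 to 5.76 CPM, median 4.18, with AU-15330 and 11.2 to 26.1 CPM, median 17.1, with the combination (2.07 ± 0.35, adjusted p = 3.4e-05). It had fallen with cisplatin alone (-3.10), and DMSO libraries ran from 26.8 to 259.6 CPM. Psat1, of serine synthesis, rose from 29.8 to 88.7 CPM (1.53 ± 0.12, adjusted p = 5.8e-10). Aldh1l2, a mitochondrial folate enzyme, read 0.360 to 0.822 CPM, median 0.688, with AU-15330 and 1.49 to 2.63 CPM, median 1.88, with the combination (1.70 ± 0.41, adjusted p = 0.0015), and remained far below DMSO (33.5 to 185 CPM). Cth, of cysteine synthesis, was called at a low level (1.75 ± 0.60, adjusted p = 0.0211), a call lost without replicate 2, 4, 5 or 6 (adjusted p from 0.0586 to 0.068) and in 1 lane alone (1.20, adjusted p = 0.136). Atf4 (0.14 ± 0.12, adjusted p = 0.362), Ddit3, which encodes CHOP (0.15 ± 0.20, adjusted p = 0.584), and Asns, asparagine synthetase (0.24 ± 0.18, adjusted p = 0.284), were not called. In the 12 libraries alone Asns (adjusted p = 0.0302) and Ddit3 (0.0379) passed, and with the replicate block there Asns (0.00011), Ddit3 (0.0238) and Atf4 (0.0241).

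Of 19 tested genes of the unfolded protein response, 1 rose (the chaperone Calr, 0.33) and 3 fell, where 41.7% of all tested genes were called. The number of calls depended on the fit: with the 12 libraries alone 5 rose and 6 fell, and with the replicate block there 5 rose and 10 fell. Herpud1 (-0.50 ± 0.18, adjusted p = 0.0278) and Sel1l (-0.35 ± 0.13, adjusted p = 0.0369), of protein degradation at the endoplasmic reticulum, and the sensor Eif2ak3 (-0.34 ± 0.11, adjusted p = 0.0108) fell, and this count depended on replicates: it was 8 without replicate 1, between 0 and 1 without replicate 2, 3, 4 or 6, and 5 with the replicate block, and the increases were 3 without replicate 1. Hspa5, the chaperone BiP, read 646 to 727 CPM, median 692, with AU-15330 and 772 to 858 CPM, median 807, with the combination and was not called although the groups were apart (0.25 ± 0.19, adjusted p = 0.298; adjusted p = 0.00028 in the 12 libraries alone and 9.1e-05 with the block there), nor was Xbp1 (-0.12 ± 0.07, adjusted p = 0.221; -0.19, adjusted p = 0.0353 without replicate 1). Cisplatin over DMSO had lowered 17 of the 19, beside 25.7% of all tested genes. DMSO replicate 1 was again apart (summed CPM of 4863, against 8315 to 11009). All 15 tested genes of glycolysis and low oxygen were lower with cisplatin over DMSO, beside 25.7% of all tested genes. With cisplatin added to AU-15330, 2 (13.3%) rose and 1 (6.67%) fell, beside 22.2% and 19.5% of all tested genes. The 12 libraries alone gave 4 and 3 of 14, and 4 and 4 with the block there. Ndrg1 rose (1.44 ± 0.22, adjusted p = 9e-06), Hk2, hexokinase, rose (0.58), Pdk1, which keeps pyruvate from mitochondria, fell (-1.09 ± 0.26, adjusted p = 0.0014), and Slc2a1, the glucose transporter (-0.12 ± 0.13, adjusted p = 0.487), and Ldha (0.18 ± 0.21, adjusted p = 0.539) were not called, although Ldha was in the 12 libraries alone (adjusted p = 0.0479, and 0.0014 with the block there).

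Of 21 tested genes of cholesterol and fatty acid synthesis, 5 (23.8%) rose and 3 (14.3%) fell, beside 22.2% and 19.5% of all tested genes. In the 12 libraries alone 8 rose and 6 fell, and 9 and 8 with the replicate block there. The increases were 3 without replicate 1, 4 or 6 and 2 without replicate 5, and the decreases 5 without replicate 1. With a fold above 1.5 asked for as well, 0 rose and 3 fell. Summed CPM of the list ran from 6593 to 8023 with AU-15330 and from 5130 to 6096 with the combination. Fasn, fatty acid synthase, read 639 to 945 CPM, median 885, with AU-15330 and 499 to 593 CPM, median 569.8, with the combination (-0.59 ± 0.13, adjusted p = 0.00083), and the desaturase Scd2 fell (-0.61 ± 0.10, adjusted p = 1.7e-05). Fdft1, of squalene synthesis, fell as well (-0.72 ± 0.15, adjusted p = 0.00033).

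Of 21 tested matrix and YAP target genes, 11 (52.4%) rose, beside 22.2% of all tested genes. Ankrd1 was among the 11, which were 10 without replicate 1, and 1 member was lower with the replicate block and with DESeq2. Col1a1, collagen I, read 58.4 to 104 CPM, median 64.2, with AU-15330 and 127 to 213 CPM, median 167, with the combination, without overlap (1.24 ± 0.24, adjusted p = 0.00016). Ccn2, a YAP target, rose (0.87 ± 0.20, adjusted p = 0.00086), and its relative Ccn1 was not called without the replicate block (0.38 ± 0.20, adjusted p = 0.121; 0.42, adjusted p = 0.0241 with the block). Col12a1 rose at a low level (1.18), and Lox, which crosslinks collagen, rose (1.07 ± 0.38, adjusted p = 0.0272) with an adjusted p of 0.0506 to 0.063 without replicate 1, 5 or 6. Of 20 tested identity genes, 9 (45%) rose and 4 (20%) fell, the latter near the 19.5% of all tested genes. Msln, mesothelin, read 99.9 to 131 CPM, median 118, with AU-15330 and 161 to 223 CPM, median 174, with the combination (0.65 ± 0.09, adjusted p = 2.6e-06), and Vim, vimentin, rose (0.54 ± 0.16, adjusted p = 0.00837). Krt19 rose (1.11 ± 0.28, adjusted p = 0.00281) and Cdh1, E-cadherin, rose from a level near the floor, 0.160 to 0.455 CPM in the median (1.73 ± 0.42, adjusted p = 0.0019). Upk1b rose (0.88 ± 0.24, adjusted p = 0.00533; adjusted p = 0.12 in 1 lane alone). Wt1 rose slightly (0.23 ± 0.08, adjusted p = 0.0196), with an adjusted p of 0.0529 to 0.0905 without replicate 1, 2, 3 or 6, while Gata6 (-0.66) and Gpm6a (-0.65) fell without overlap.

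Of 20 markers of other cell types, 4 passed the filter and 3 of these rose. Pdgfra (0.90 ± 0.26, adjusted p = 0.00757), Lum (0.88 ± 0.35, adjusted p = 0.0463) and Pecam1 (0.69 ± 0.24, adjusted p = 0.0216) were at or below 4.46 CPM in all 12 libraries, the groups overlapped, and 1 of the 3 was called without replicate 1, 3, 5 or 6. Lum was 0.55 without replicate 1. The fourth, the fibroblast gene Dcn, read 42.3 to 66.1 CPM, median 65.7, with AU-15330 and 44.9 to 76.1 CPM, median 60.1, with the combination, and was not called (0.04 ± 0.17, adjusted p = 0.886). Whether other cells contributed to the matrix genes was not tested.

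Of 24 tested genes of cell death, 9 (37.5%) rose and 3 (12.5%) fell, beside 22.2% and 19.5% of all tested genes. The 9 were 6 with DESeq2 size factors, without the filter and without replicate 1, 3, 4, 5 or 6, and 2 with a fold above 1.5. The 12 libraries alone gave 10 higher and 5 lower, and 10 and 6 with the replicate block there. Bcl2, which blocks apoptosis, rose from 15 to 31.8 CPM (1.13 ± 0.17, adjusted p = 7e-06), and the BH3 genes Bmf (-1.16 ± 0.15, adjusted p = 1.3e-06) and Bcl2l11, which encodes BIM (-0.58 ± 0.09, adjusted p = 4.9e-06), both promoters of apoptosis, fell without overlap. The inflammatory caspase Casp4 rose (0.81), as did Mlkl, the executor of necroptosis (0.40), and Bcl2l1 was not called (-0.05 ± 0.09, adjusted p = 0.698). Of 24 SWI/SNF genes, 3 (12.5%) rose (1 without replicate 3) and 3 (12.5%) fell. In the 12 libraries with the replicate block 4 rose and 7 fell. Bicral (-0.68 ± 0.16, adjusted p = 0.00164), Smarcd3 (-0.48 ± 0.08, adjusted p = 6.1e-05) and Smarcc2 (-0.42 ± 0.11, adjusted p = 0.0028) fell without overlap. Smarca2, the second target of AU-15330, was not called (246 to 302 CPM, median 289, with AU-15330 and 200.4 to 273 CPM, median 256, with the combination, -0.19 ± 0.08, adjusted p = 0.0773), but was with the replicate block (-0.19, adjusted p = 0.0237) and without replicate 1 (-0.21, adjusted p = 0.0094).

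Histone genes need care, since most of their mRNAs lack a poly(A) tail, the libraries were poly(A)-selected, and their copies are nearly identical. Of 69 listed, 31 were tested, 2 (6.45%) rose (1 without replicate 1) and 9 (29%) fell, beside 22.2% and 19.5% of all tested genes, with a median of -0.392, whereas the median with cisplatin over DMSO was 1.77. Summed CPM, which weights abundant members, went the other way there, with 674 to 1017 in DMSO and 499 to 631 with cisplatin alone. H1f2 read 69.0 to 96.8 CPM, median 87.4, with AU-15330 and 32.4 to 44.8 CPM, median 38.1, with the combination (-1.17 ± 0.09, adjusted p = 3.5e-10). H3c8 (1.34 ± 0.29, adjusted p = 0.00067) and H2bc11 (1.34 ± 0.40, adjusted p = 0.00808) rose at levels of at most 2.20 CPM, with overlap.

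Some genes were at or near the floor in 1 group. They were counted without symbols that start with Gm, end in Rik or mark pseudogenes. In 62 called genes no AU-15330 library had more than 3 counts, and the 4 with the highest mean in the combination were Plcl1 (0.479 to 1.15 CPM with the combination), the metalloproteinase Mmp10 (0.364 to 1.47 CPM), Tnfrsf26 (0.0958 to 1.04 CPM) and the chemokine Ccl9 (0.0958 to 0.562 CPM). In the reverse, 3 called genes had no combination library above 3 counts: Palmd, Lingo4 and Sdr9c7, which were at or below 0.411, 0.261 and 0.308 CPM in AU-15330 libraries. At this depth such genes are at or near the floor, and no fold is given. The call of Palmd was lost without replicate 2, 3 or 5, and that of Sdr9c7 without any of replicates 1 to 5.

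Set side by side with cisplatin over DMSO, a contrast that shares no library with this one, the calls were shared in part. Of all tested genes, 22.2% were called higher and 19.5% lower with the combination than with AU-15330 alone. Of 3360 genes higher with cisplatin alone (26%), 1447 (43.1%) were higher, 253 (7.53%) lower and 1660 (49.4%) not called when AU-15330 was present, and the interaction was called for 883 of the 1660. Of 3329 genes lower with cisplatin alone (25.7%), 1146 (34.4%) were lower, 344 (10.3%) higher and 1839 (55.2%) not called, with the interaction called for 988 of the 1839. A further 1082 genes rose and 1122 fell among genes not called with cisplatin alone, of which the difference itself was called for 647 and 482. Over all genes the interaction was called for 4361 (33.7%), 2313 positive and 2048 negative.

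Among genes with a mean log2 CPM of at least 5 over the 24 libraries, the interaction was most negative for Isg15 (-6.47), Rtp4 (-5.88), Irf7 (-5.14) and Xaf1 (-4.85), all interferon genes. Cisplatin took Isg15 from between 1.59 and 3.77 CPM in DMSO to between 110.3 and 196 CPM. It was most positive for Trf, the iron carrier transferrin (3.68), Ptgs2, cyclooxygenase 2 (3.67), Ero1l, an oxidase of the endoplasmic reticulum (3.31), and Lgals3, galectin 3 (3.12). Of these, Trf read 3174 to 7771 CPM in DMSO, 1479.9 to 3839 with cisplatin, 5.24 to 7.38 with AU-15330 and 23.6 to 56.3 with the combination (2.61 ± 0.29, adjusted p = 7.7e-08). Ptgs2 (1.22) and Lgals3 (1.76) rose over AU-15330 alone without overlap, and Ero1l was not called (0.30 ± 0.30, adjusted p = 0.446; adjusted p = 0.00397 in the 12 libraries alone and 0.00136 with the block there).

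**Figure D5:**
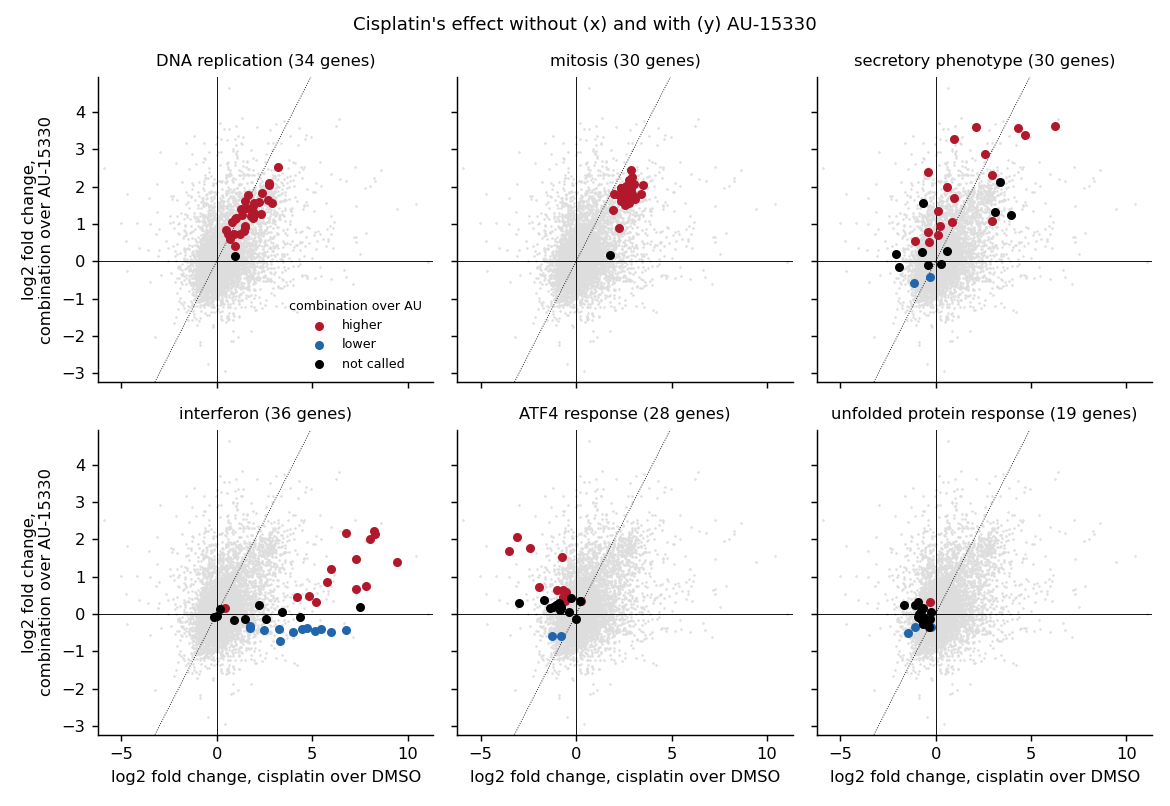
Log2 fold change of cisplatin over DMSO (x axis) and of the combination over AU-15330 alone (y axis) for all tested genes (gray) and for the members of 6 lists, colored by their call on the y axis (red higher, blue lower, black not called). On the dotted line both responses are equal. Replication and mitosis genes lie above 0 on both axes, most interferon genes lie far to the right with calls on both sides of 0 on the y axis, and most ATF4 genes lie left of 0 and at or above 0 on the y axis.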

How the data were processed

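Per the labels and the study's methods, RNA was taken with RNeasy columns, poly(A)-selected and made into directional libraries with NEBNext Ultra II. The authors aligned single-end reads with STAR 2.7.1a to mm10 and deposited raw counts per gene for 48 columns, 2 lanes for each of 24 libraries. They used DESeq2 1.36.0. The counter, its strand setting and annotation are not given in the sources used here, so overlapping genes and near-identical copies are uncertain.

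The deposited counts of the 2 lanes were summed per library, and samples were grouped by the treatment label. Of 25229 genes, 12941 passed filterByExpr. Counts were scaled by TMM and fitted in edgeR 4.0.16 (R 4.3.3) with group means over all 24 libraries (20 residual df), tested by the quasi-likelihood F test and called at a Benjamini-Hochberg adjusted p under 0.05. CPM were TMM-scaled. The floor was 3 counts a library, which covers counting error only. The interaction is the combination over AU-15330 minus cisplatin over DMSO. DESeq2 1.42.0, other scalings and filters, lane L001 alone, a fold threshold, leaving out each replicate and a replicate block were alternatives. The fit was tested on simulated data of this comparison with 200 changed genes, of which 199 were tested and 185 called, with 5.13% of calls false.

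Whether replicate numbers pair the libraries is uncertain. Same-numbered deviations from the group means correlated at 0.101 to 0.483 in all 6 pairs, although only 4 of 6 numbers correlated best with their own (5 and 6 did so with each other). The pairing used in the alternatives rests on this check only, since no label says what a number marks.

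The comparison and the lists were chosen with earlier results of these data known, and histone symbols of the newer naming were added after the table was seen. Named genes were the 8 largest changes each way (mean log2 CPM of at least 5, 6 of 6 pairs alike), the 4 largest interactions each way, each list's lead genes and its 3 largest calls, the 4 highest genes at the floor in 1 group, and the target genes. Further list members were named after their values were seen. Loci are those of GENCODE vM21 and promoters those of RefSeq, GRCm38.p6. Some members of the lists enter the counts and sums but are not reported here by name.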

Additional observations from a re-analysis of the deposited data

Results flagged for a closer look

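The response to cisplatin with AU-15330 present differed from that without it, by the interaction test in edgeR's quasi-likelihood fit, in 4361 of 12941 genes (33.7%). By list these were 33 of 36 tested interferon genes, 15 of 34 replication genes, 19 of 30 mitosis genes, 20 of 30 secretory genes, 24 of 28 ATF4 genes, 14 of 19 genes of the unfolded protein response and 29 of 31 histone genes. DMSO replicate 1 lay apart in the ATF4 and unfolded protein genes (summed CPM of 3621 and 4863, below the other DMSO libraries), and the interactions called without replicate 1 were 24 and 16. The log2 difference of the responses was -6.47 for Isg15, -5.88 for Rtp4, -5.14 for Irf7 and -4.85 for Xaf1, and 3.68 for Trf, 3.67 for Ptgs2, 3.31 for Ero1l and 3.12 for Lgals3.

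In 34 of 276 groups of 6 libraries looked at for named genes (12.3%), 1 library lay far from the others by Dixon's gap over the range of the group at the 95% level. Chance alone flags about 1 in 20 groups. Replicate 1 was that library in 27 of the 34.

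With AU-15330, replicate 1 was high in the replication genes Mcm2 (145 CPM), Pcna (217 CPM), Orc1 (3.56 CPM) and Cdc45 (22.5 CPM). It was also high in Ccnd1 (34.4 CPM), Rtp4 (135 CPM), Raet1e (3.78 CPM), Krt19 (14.4 CPM), Col1a1 (104 CPM) and Ndrg1 (11.1 CPM). It was low in Eif2ak3 (38.2 CPM), Smarca2 (246 CPM) and Smarcc2 (293 CPM). Replicate 2 was high in E2f1 (78.9 CPM) and Sdr9c7 (0.308 CPM), and replicate 6 in Lingo4 (0.261 CPM).

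With the combination, replicate 1 was high in the cell cycle genes Cep55 (110 CPM) and Cdk1 (214 CPM) and in Lmnb1 (92.2 CPM) and Hmgb2 (92.1 CPM). It was also high in Rnd1 (101 CPM), Cxcl10 (62.7 CPM), Atf4 (454 CPM), Maff (43 CPM), Ccn2 (255 CPM) and Lum (2.12 CPM). It was low in Ddx58 (277 CPM), Smarca2 (200 CPM), Bicral (66.7 CPM) and Smarcc2 (198 CPM). Replicate 3 was high in Fosb (49.8 CPM), replicate 6 in Pdgfra (4.46 CPM) and Sdr9c7 (0.0465 CPM), and replicate 5 was at 0 in Palmd. What sets replicate 1 apart was not tested.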

How the results depend on the processing

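The comparison gave 5394 called genes (2873 higher and 2521 lower), and 4501 to 5623 when a single replicate was left out (2360 to 2575 higher and 2141 to 3049 lower, with 3265 to 4627 interactions). Counts stayed within 1.5 times of these with DESeq2 size factors, without TMM, with other filters and in 1 lane. The fold and the smaller fit moved a count further: a fold above 1.5 left 2035 genes (1403 higher and 632 lower) and 2507 interactions, and the 12 libraries alone with a replicate block, an alternative chosen after seeing the data, gave 3895 lower and called 15 more named genes. In the paired analysis, the replicate block over 24 libraries gave 6185 genes (3229 higher and 2956 lower) and 5303 interactions, and among named genes it changed the call of Smarca2 and Ccn1 and of no other. No call kept under any alternative changed sign. Of 142 named genes, 113 had the same call in each alternative that tested them, the fold threshold aside. At this depth, genes under 0.123 to 0.157 CPM are within 3 counts of 0.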

Other observations

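The ATF4 list also shares letters in its promoters. TGATGNAA, the core of the element bound by ATF4 with C/EBP factors, was in 9 of 22 members with a RefSeq window (40.9%), against 2.69% of tested genes and 3.97% of all windows. It was in 3 of 9 members that rose, 1 of 2 that fell and 5 of 11 not called.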
